A study of Gallus gallus with 6 samples.

Results

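In embryonic chicken lung, 34 of the 17108 gene identifiers counted were higher at embryonic day 6 (E6) than at embryonic day 5 (E5) by a set minimum in both of a pair of separate comparisons. Levels are in CPM, counts per 1000000 counts of the library. The rule used replicates 2 and 3 only: a gene needed a mean of at least 5 CPM over these 4 libraries, which 9796 genes reached, and log2((CPM at E6 + 1)/(CPM at E5 + 1)) of at least 0.4 in replicate 2 and again in replicate 3. The E6 and E5 libraries of one replicate number are called a pair. The 34 genes are 0.347% of the 9796.

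The E6 group and the E5 group each comprised 3 libraries of whole lungs from wild-type White Leghorn embryos, with RNA from a pool of 6 lungs per library. No treatment or mutation was involved, and age was the only labelled difference between the groups. By its title, the study dealt with mesenchymal proteases and the matrix around the branching airways. A pool of whole lungs mixes epithelium, mesenchyme, vessels and blood, so that for any gene a change in the number of cells of a type and a change in RNA per cell cannot be told apart.

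In the bird lung the airways begin as a pair of epithelial tubes, the primary bronchi, which grow into a coat of mesenchyme. Secondary bronchi then bud from them at set positions, while the matrix around the epithelium is laid down and cut by enzymes, and smooth muscle and vessels form in the mesenchyme. E5 and E6 fall in this early period of budding. The files give Ensembl identifiers without gene names, and the reference table used here paired 0 of them with a symbol, so the 34 genes cannot be placed among matrix proteases, signalling ligands or cell type markers. Nor could the label of lung be checked against its marker genes, and no promoter or protein sequence is shown. Only the genes that stand first in a ranking are given by identifier. The others are given by difference rank, the order of the smaller of their differences in pairs 2 and 3, or by level rank, the order of their mean CPM over the 4 libraries, each from 1 at the top to 34. CPM is not corrected for gene length, so level rank orders reads and not transcripts.

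Totals lay between 10059547 and 12993894 counts in replicates 2 and 3 and were 509443 in E6 replicate 1 and 585803 in E5 replicate 1. Both replicate 1 libraries stood apart: over the 9796 genes the Pearson correlation of log2(CPM + 1) was 0.34 to 0.44 between a replicate 1 library and another, 0.85 between the replicate 1 libraries, and 0.978 to 0.991 within replicates 2 and 3. Correlation is also lower at lower depth. Within replicates 2 and 3, the E6 and E5 libraries of 1 number were closest, at 0.991 for number 2 and 0.990 for number 3. Libraries of the same stage were less alike, at 0.985 for E5 and 0.978 for E6. Against sampling noise at the given totals, chi-square per degree of freedom was 59.5 to 66.5 between a replicate 1 library and another. It was 2.50 between the replicate 1 libraries and 2.91 to 4.89 within replicates 2 and 3. These values run over genes and describe the libraries only. The rule left replicate 1 out, and its values are given apart.

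The differences that chose the genes were mostly modest. They ran from 0.41 to 1.70 on the log2 scale in pair 2 and from 0.40 to 1.47 in pair 3, with medians of 0.56 and 0.55, beside medians of -0.019 and -0.013 over all 9796 genes. Since these values chose the genes, they describe them and test nothing. A difference of at least 1 was reached by 5 of the 34 in pair 2, by 3 in pair 3 and by 2 in both. On this scale that is 2-fold in CPM + 1, and more than 2-fold in CPM itself. For 19 of the 34 the smaller difference lay under 0.5. The counting standard error, taken for a plain log2 ratio of counts without the added 1, was 0.025 to 0.39, with a median of 0.20 in each pair. It overstates the counting error of the differences, most at low level. Just inside the threshold, the genes with the smallest values had 0.44 and 0.4002, 0.41 and 0.77, and 0.55 and 0.41 in pairs 2 and 3. Just outside it, genes had 0.55 and 0.399, 0.70 and 0.399, and 0.397 and 0.53.

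**Figure D1:**
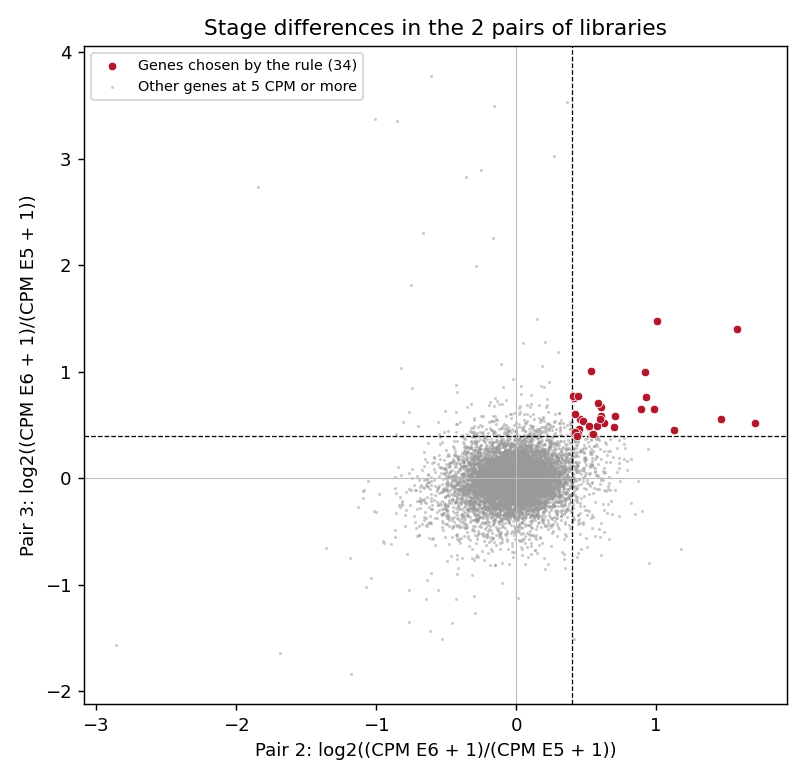
Stage difference of each of the 9796 genes at 5 CPM or more, as log2((CPM E6 + 1)/(CPM E5 + 1)) in pair 2 (horizontal axis) and pair 3 (vertical axis). Dashed lines mark the threshold of 0.4, and the 34 red points in the upper right corner are the genes chosen by it, most of them close to the lines.

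ENSGALG00000015914.4 had the largest smaller difference of the 34. Its E6 libraries stood at 14.4 CPM (replicate 2) and 19.9 CPM (replicate 3), against 4.16 and 6.91 CPM at E5. The stage means were 17.1 ± 3.91 CPM at E6 and 5.53 ± 1.95 CPM at E5 (SD, n = 2 each), and its differences were 1.57 and 1.40, with counting standard errors of 0.23 and 0.20. Both E6 libraries lay above both E5 libraries. It is 1 of the 2 genes with a difference of at least 1 in both pairs.

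The other, at difference rank 2, stood at 9.38 and 13.5 CPM at E6, against 4.16 and 4.24 CPM at E5. Its E5 libraries were nearly equal, and its E6 libraries were spread more widely, by an SD of 2.93 CPM (n = 2). The gene at difference rank 3 had 9.76 and 4.67 CPM at E6, against 4.69 and 1.84 CPM at E5. Its stages overlapped by a hair, because replicate 2 ran higher than replicate 3 at both ages, and the lowest of its counts was 20 reads. Difference rank 4 was held by a more abundant gene, with 33.5 and 26.5 CPM at E6, against 17.2 and 15.3 CPM at E5. There the stages were well apart, with differences of 0.93 and 0.76 and counting standard errors of 0.12 and 0.14.

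Pairs did not always give the same size. At difference rank 15, a gene held 47.4 and 21.6 CPM in replicates 2 and 3 at E6, against 13.9 and 14.7 CPM at E5. Its E5 libraries matched closely, while E6 replicate 2 held more than E6 replicate 3, so its differences were 1.70, the highest in pair 2, and 0.52. Difference rank 11 belonged to a gene with 8.13 and 6.16 CPM at E6, against 2.31 and 3.87 CPM at E5, which gave 1.46 and 0.56. Difference rank 23 went to a gene with 8.90 and 7.16 CPM at E6, against 3.54 and 4.97 CPM at E5, which gave 1.12 and 0.45. In these 3 genes the pairs differed by more than 0.5, each time with the larger value in pair 2. Across the 34 the median gap between the pairs was 0.13. It was under 0.1 for 15 genes, and the larger value fell in pair 2 for 19 genes and in pair 3 for 15. The closest match was at difference rank 25, a gene with 26.4 and 26.5 CPM at E6, against 19.5 and 19.5 CPM at E5, and differences of 0.42 and 0.42.

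ENSGALG00000016172.3 was the most abundant of the 34. It had 670.2 and 578.7 CPM at E6, against 480.1 and 397.6 CPM at E5, with stage means of 624.4 ± 64.7 CPM and 438.9 ± 58.4 CPM (SD, n = 2 each). Both E6 libraries lay above both E5 libraries, and the differences were 0.48 and 0.54, each with a counting standard error of at most 0.029. At level rank 2 stood a gene with 244.7 and 278.6 CPM at E6, against 179.7 and 162.4 CPM at E5. At level rank 3 stood a gene with 215.5 and 255.2 CPM at E6, against 141.4 and 170.5 CPM at E5. For each of these 3 the counting error was small beside the difference, but it leaves out the spread between pools. The rule used these differences, so nothing is read from that.

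Below these 3 came a wide gap in level. Level rank 4 held 39.2 and 63.7 CPM at E6, against 25.0 and 44.1 CPM at E5, with overlapping stages, since E5 replicate 3 exceeded E6 replicate 2. Level rank 5 held 47.2 and 41.1 CPM at E6, against 28.5 and 27.1 CPM at E5, with stages apart. The 3 most abundant genes held 67.6% and 68.0% of the summed CPM of the 34 at E6, against 71.3% and 68.4% at E5. A sum over the 34 therefore speaks mainly of these 3: it was 1673 and 1635 CPM at E6, against 1123 and 1068 CPM at E5. The median of the 34 was 14.2 and 14.6 CPM at E6, against 7.003 and 8.52 CPM at E5, while the median of the 9796 genes was 45.3 and 45.5 CPM at E6, against 46.1 and 46.3 CPM at E5.

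**Figure D2:**
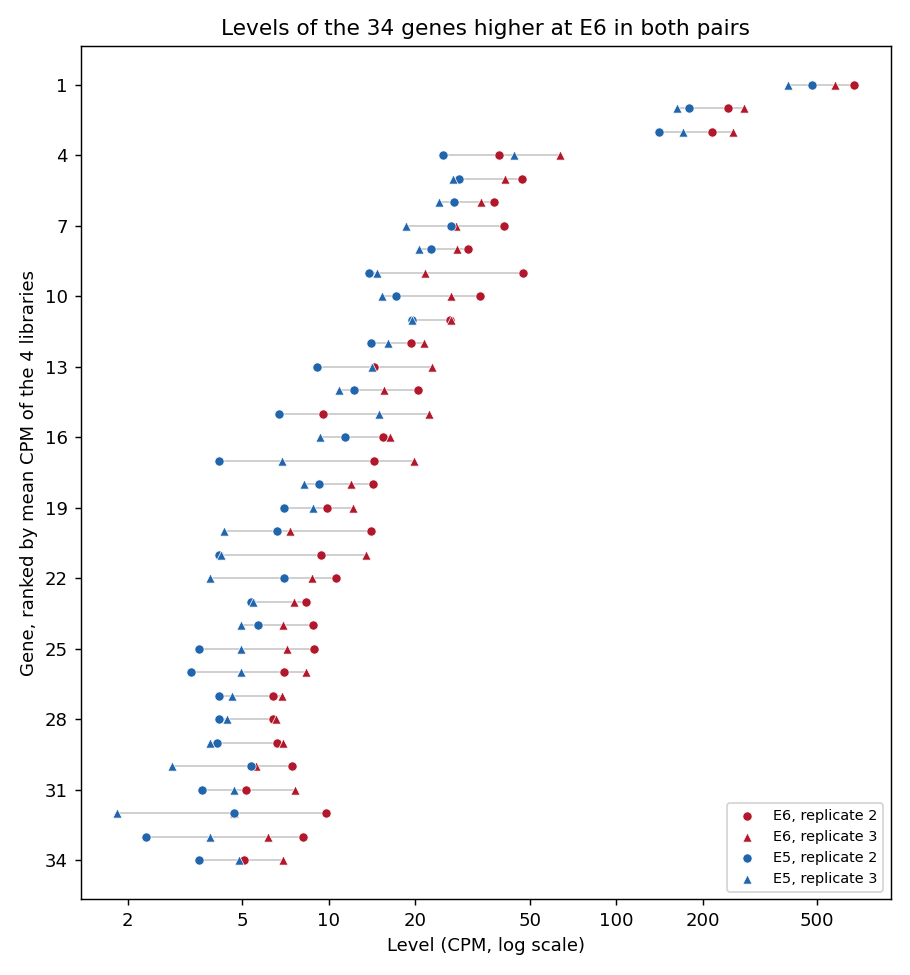
Level in CPM (horizontal log axis) of each of the 34 genes in the E6 and E5 libraries of replicates 2 and 3, with 1 row per gene in order of mean CPM and a grey line over its range. The top 3 rows lie above 100 CPM, the rest below, and in 3 rows a blue E5 point lies to the right of a red E6 point.

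In 31 of the 34 genes both E6 libraries lay above both E5 libraries. Among the 9796 genes the same order was found in 11.5%, and the reverse in 15.9%. The rule used these values, so nothing is read from the count. The exceptions were the genes at difference ranks 3, 14 and 21, each of which held a steady offset between replicate 2 and replicate 3 at both ages. In the quasi-likelihood test of edgeR over all genes with replicates 2 and 3, 0 of 11784 genes passed an adjusted p of 0.05 without a term for the replicate number, a background of 0% for higher at E6, and 0 of the 34 did. At an unadjusted p under 0.05 that test had 303 of the 11784 genes, in either direction, and 22 of the 34 were among them. Once the replicate number was added as a block, 75 genes were called higher at E6, a background of 0.636%, and 18 of the 34 were among them. DESeq2 without the block called 1 gene higher at E6, a background of 0.00849%, which was 1 of the 34, and limma-voom called 0. With all 6 libraries and the block, edgeR called 14 higher of 11683, a background of 0.12%, with 8 of the 34. The 18 genes had a median level of 19.1 CPM and the other 16 one of 6.64 CPM. All these fits share the contrast of the rule, so these counts describe the genes and do not test them.

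The genes were mainly of low abundance. Their median level over the 4 libraries was 11.1 CPM, beside 46.0 CPM over the 9796 genes, and 31 of the 34 lay under that overall median. None was among the 200 most abundant genes, the highest being at place 235. Between 5 and 10 CPM the rule took 16 of 1147 genes, or 1.39%. Between 10 and 20 CPM it took 7 of 1424, or 0.492%, and between 20 and 50 CPM 8 of 2572, or 0.311%. None of 2047 genes was taken between 50 and 100 CPM, and 3 of 2606, or 0.115%, at 100 CPM or more.

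The threshold was passed in other directions too, in the same low classes. Of all 9796 genes, pair 2 alone put 295 at 0.4 or more and pair 3 alone 278. The 34 in common are 11.5% of the first list and 12.2% of the second. Genes at -0.4 or less in both pairs numbered 72, which is 16.6% of the 433 in pair 2 and 21.2% of the 340 in pair 3. Another 47 genes passed 0.4 in size in opposite directions, 23 of them higher at E6 in pair 2 and 24 in pair 3. Of those 47, 30 lay between 5 and 10 CPM, which is 2.62% of that class against 1.39% for the genes higher in both pairs. Between 20 and 50 CPM the opposite genes made 0.156%, under the 0.311% higher in both pairs, and at 100 CPM or more there were 0 opposite genes against 3 higher. The median counting standard error, of a plain log2 ratio as above, was 0.23 in pair 2 and 0.24 in pair 3 between 5 and 10 CPM. At 100 CPM or more it was 0.045 and 0.047. What part counting error has in the low classes was not tested.

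**Figure D3:**
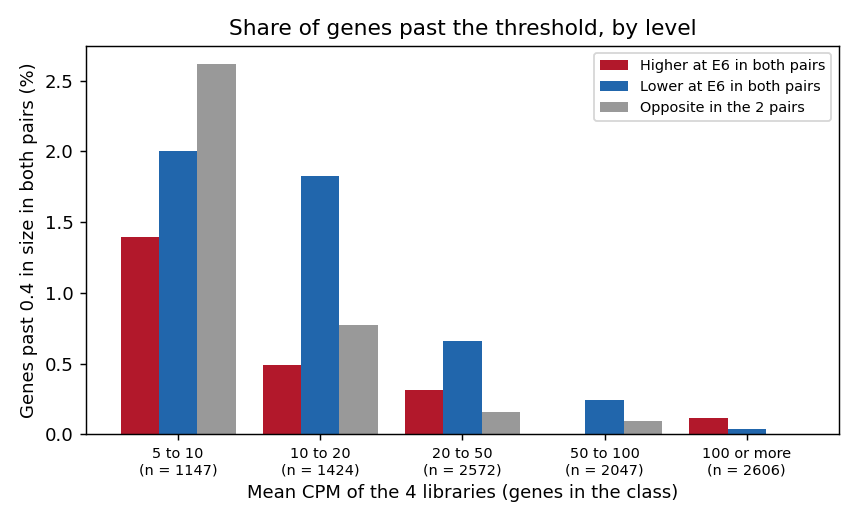
Share of genes (vertical axis, %) whose stage difference was at least 0.4 in size in both pairs, by class of mean CPM (horizontal axis, number of genes in parentheses), for genes higher at E6 in both, lower at E6 in both and opposite in the 2 pairs. All 3 shares are highest between 5 and 10 CPM, where opposite genes lead, and opposite genes are 0 at 100 CPM or more.

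The rule set no condition on the difference between replicate numbers, and the number of the 34 genes called different there depended on the test: 9 in edgeR, 7 in limma-voom and 2 in DESeq2. In edgeR's quasi-likelihood test of replicate 3 over replicate 2 with stage as a term, 4 of the 34 were higher and 5 lower in replicate 3 at an adjusted p under 0.05. The background was 11.2% of the 11784 genes tested, 6.97% higher and 4.27% lower, while 9 of 34 is 26.5%. All 34 genes entered the test. With 4 libraries its only residual spread is the gap between the stage differences of pairs 2 and 3, values that the rule used, so nothing is read from the count of the 34 against the background and the p-values below describe these genes. The median log2 fold change of the 34 was 0.0040 and the median of its size 0.27, beside -0.0093 and 0.16 over all genes tested. Over the 9796 genes at 5 CPM or more these medians were -0.011 and 0.14, with 11.9% called. The 34 lay lower in level, with a median of 11.1 CPM beside 46.0 CPM over the 9796 genes. Counting error is larger at low level, and its part in these sizes was not tested. The labels do not say what a replicate number stands for.

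The widest replicate difference was at difference rank 21, where a gene held 9.57 and 22.4 CPM in replicates 2 and 3 at E6, against 6.70 and 14.9 CPM at E5. Replicate 3 was higher at both ages, by 1.19 on the log2 scale (SE 0.19, edgeR adjusted p = 4.7e-08), which is more than its stage differences of 0.46 and 0.55. The gene at level rank 4, given above, was also higher in replicate 3, by 0.75 (SE 0.13, edgeR adjusted p = 1.2e-07). These were the only 2 of the 9 that DESeq2 called as well. At difference rank 7, a gene held 14.4 and 23.0 CPM in replicates 2 and 3 at E6, against 9.08 and 14.1 CPM at E5, and was higher in replicate 3 by 0.66 (SE 0.18, edgeR adjusted p = 0.0050). Its stages still stood apart, though by a narrow margin of 14.4 against 14.1 CPM.

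In the other direction stood the gene at difference rank 3, lower in replicate 3 at -1.18 on the log2 scale (SE 0.29, edgeR adjusted p = 0.0013). With 14.1 and 7.36 CPM in replicates 2 and 3 at E6, against 6.62 and 4.33 CPM at E5, the gene at difference rank 5 gave -0.79 (SE 0.24, edgeR adjusted p = 0.014). Difference rank 12 belonged to a gene with 40.9 and 27.8 CPM in replicates 2 and 3 at E6, against 26.6 and 18.6 CPM at E5, and -0.54 (SE 0.14, edgeR adjusted p = 0.0025). Replicate 2 was higher than replicate 3 at both ages in each of these 3 genes. The gene at difference rank 15 also passed, with -0.59 (SE 0.16, edgeR adjusted p = 0.0037), though there E5 replicate 2 was slightly below E5 replicate 3 and the value comes from E6. Its pairs differed by 1.18, yet its SE was near the 0.15 of difference rank 25, where they matched. So this p-value does not measure the gap of this gene.

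The remaining 2 of the 9 were abundant and differed little. For replicate 3 over replicate 2, ENSGALG00000016172.3 had -0.24 on the log2 scale (SE 0.086, edgeR adjusted p = 0.042), and the gene at level rank 3 had 0.26 (SE 0.091, edgeR adjusted p = 0.044). Limma-voom called the 9 without these 2, and it missed ENSGALG00000016172.3 with an adjusted p of 0.063. ENSGALG00000015914.4 was at 0.57 (SE 0.21, edgeR adjusted p = 0.056) and did not pass. The 25 genes that did not pass had values between -0.65 and 0.57, with standard errors of 0.090 to 0.29. DESeq2 called 2 of the 34 and 2.87% of the 11098 genes to which it gave an adjusted p, and limma-voom 7 of the 34 and 9.2% of the 11784. EdgeR without the stage term called 1 of the 34 and 706 of the 11784. Leaving out a library leaves no room for that term, and a replicate number then has 1 library, so no count is given.

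**Figure D4:**
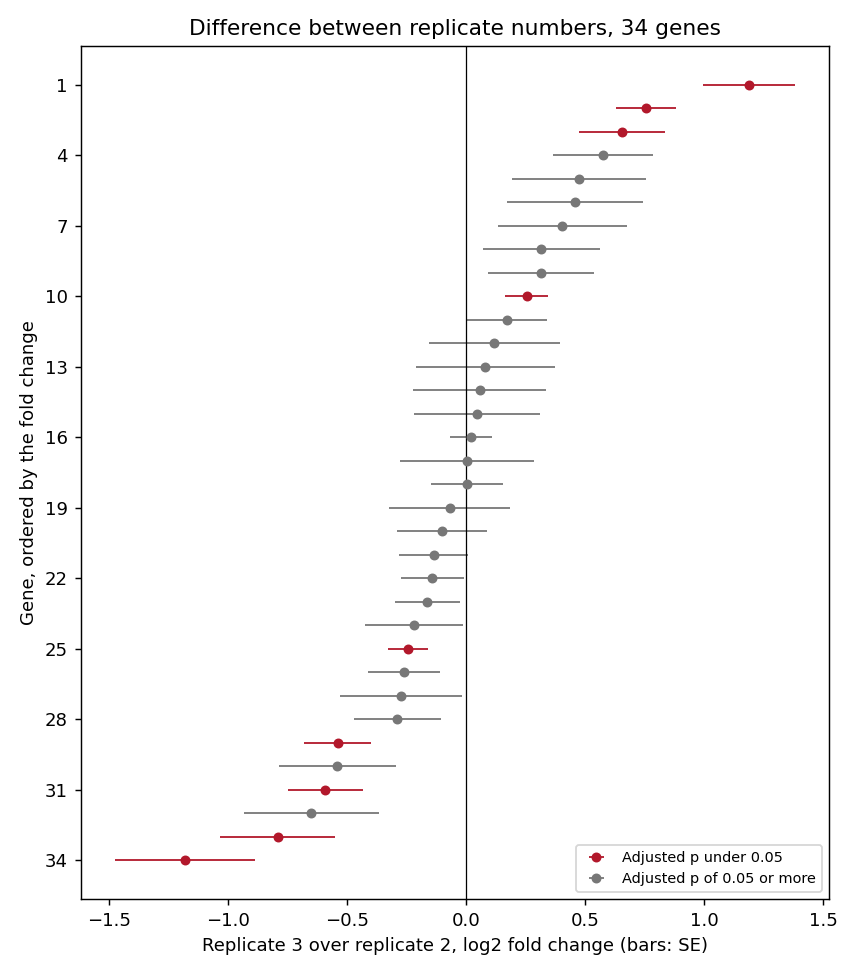
Log2 fold change of replicate 3 over replicate 2 with stage as a term (horizontal axis, bars show the SE from edgeR) for each of the 34 genes, in order of value. Red points, 4 on the right and 5 on the left, had an adjusted p under 0.05, and the 25 grey ones did not.

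Replicate 1 is the only pair that the rule did not use, and it gave few counts. Of the 34 genes, 8 had no count in either of its libraries. Such a 0 allows a level of up to 5.89 CPM at E6 and 5.12 CPM at E5 (3 counts, for counting error only). A further 21 had 1 to 9 counts over both libraries, and 5 had at least 10. Genes with no count made up 23.5% of the 34 and 13.0% of the 9796, and genes with at least 10 counts made up 14.7% and 38.4%. The 34 lay lower in level, with a median of 11.1 CPM in replicates 2 and 3 beside 46.0 CPM over the 9796. What part level has in these shares was not tested. Of the 72 genes lower at E6 in both pairs, 37.5% had no count and 20.8% had at least 10. The summed level of the 34 was 400.4 CPM in E6 replicate 1 and 501.9 CPM in E5 replicate 1. The gene at level rank 6 alone held 276.8 CPM of the E6 sum and 309.0 CPM of the E5 sum, so these sums speak mainly of that gene and not of the 3 that lead in replicates 2 and 3.

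Of the 5 genes with at least 10 counts, 2 were higher and 3 lower at E6 in replicate 1, which is 40.0% higher. The 5 genes share the same 2 libraries and are not replicates of a stage. Among the 3761 of the 9796 genes with at least 10 counts 31.2% were higher. The median difference of the 5 was -0.16, beside -0.34 over the 3761, so the libraries themselves lean to lower values at E6 on this scale. With TMM effective library sizes in place of totals 3 of the 5 were higher and the median was 0.048, so their direction on balance depends on the scaling. Over any number of counts, 11 of the 34 were higher and 15 lower at E6 in replicate 1. Of these, 21 had under 10 counts. A single count is worth 1.96 CPM at E6 and 1.71 CPM at E5 there, so equal counts read as higher. The same tally over the 9796 genes was not made, so nothing is read from the tally.

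The intervals of log2 ratios in replicate 1 cover counting error only. With 1 library per stage they take in no spread between pools, and these libraries differed by more than sampling noise (chi-square per degree of freedom 2.50), so they test no difference between stages or between pairs. ENSGALG00000016172.3 had 6 counts in E6 replicate 1 and 32 in E5 replicate 1, or 11.8 and 54.6 CPM. Its log2 ratio was -2.21 (exact 95% interval -3.76 to -0.94), beside differences of 0.48 and 0.54 in pairs 2 and 3, and its level was 16.0-fold below its mean in the other 4 libraries. ENSGALG00000015914.4 had 2 counts in E6 replicate 1 and 9 in E5 replicate 1, with a log2 ratio of -1.97 (exact 95% interval -5.22 to 0.30). Its differences in pairs 2 and 3 were 1.57 and 1.40. The deepest value came from the gene at level rank 6, with 141 counts at E6 and 181 at E5 and a log2 ratio of -0.16 (exact 95% interval -0.49 to 0.17). In pairs 2 and 3 its differences were 0.45 and 0.46, from 37.6 and 33.8 CPM at E6, against 27.2 and 24.2 CPM at E5, and its level in replicate 1 was 9.53-fold above its mean there. The genes at level ranks 14 and 34 had log2 ratios of 0.30 and 0.064, with intervals from -0.85 to 1.46 and from -1.33 to 1.44.

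**Figure D5:**
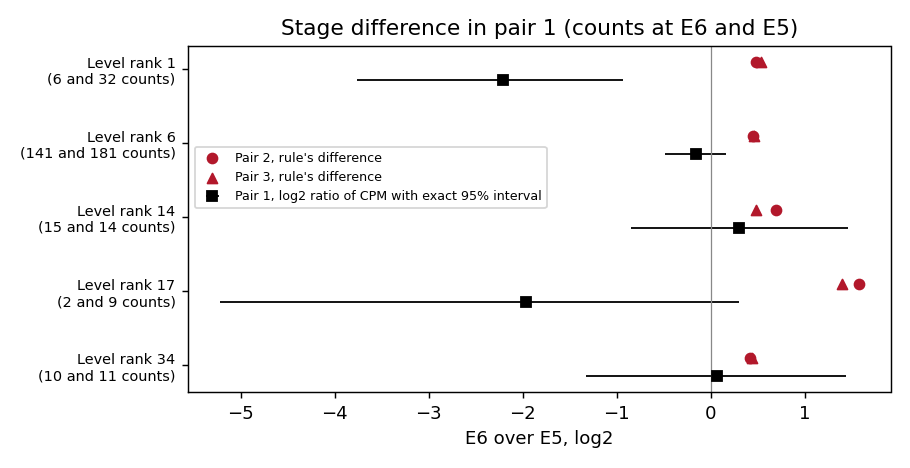
Stage difference in replicate 1 of the 5 genes with at least 10 counts there, as log2 ratio of CPM with its exact 95% interval (black squares), beside the differences in pairs 2 and 3 on the rule's scale (red). The squares at level ranks 1, 6 and 17 lie below 0 and the others above it; the intervals cover counting error only, from 1 library per stage.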

How the data were processed

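For each library the authors deposited a table of raw read counts, whole numbers for 17108 versioned Ensembl identifiers. Per the submitters' processing notes, Bowtie 1.1.1, cutadapt 1.6, TopHat 0.9, HTSeq and DESeq2 were used, with the builds galGal4 and mm10; their roles, the annotation and the strand setting were not given in the sources used here, so reads of overlapping or near-identical genes may be mixed. Libraries were made with a WaferGen kit, per the labels' protocols. The genes and lists were chosen with earlier results of these data known. The rule for naming genes, set in case no symbols were found, gives 1 identifier per ranking. The 18 gene lists written for symbols were not analysed here.

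CPM used library totals and differences a pseudocount of 1. EdgeR 4.0.16 in R 4.3.3 tested all genes (robust quasi-likelihood, TMM, filterByExpr, Benjamini-Hochberg). DESeq2 1.42.0 and limma 3.58.1 (voom) were alternatives. SE is the log2 fold change over the square root of F. The edgeR fits were also run on simulated counts with the same dispersion for every gene. For the stage fit these held no replicate difference, so they do not vouch for its calls in these data. Deviations from stage means correlated by 0.79, 0.77 and 0.78 within numbers 1 to 3 (6 libraries), so numbers were taken as pairing libraries, from the data; replicate 1 standing apart enters these values, and with replicates 2 and 3 alone the correlation was 0.48. No 2 libraries agreed within sampling noise (lowest chi-square per degree of freedom 2.50). The design calls the replicates biological. Without a replicate term, p-values of the stage test measure the spread between these pools. With stage and replicate terms, p-values rest on the gaps between the stage differences of the pairs, as edgeR pools them over genes. They do not measure a gene's own gap: at difference ranks 15 and 25 the gaps were 1.18 and 0.0027. The SEs of the replicate difference were 0.16 and 0.15 there.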

Additional observations from a re-analysis of the deposited data

How the results depend on the processing

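In edgeR without the replicate block, the stage test of replicates 2 and 3 called 0 genes, or 1 with no filter on low counts. DESeq2 called 4. With the replicate block edgeR called 152, or 28 with all 6 libraries and the block. The replicate test called 1324 genes, against 318 in DESeq2, 706 without the stage term and 595 to 929 when single libraries were left out; of the 34 genes it called 9, against 2, 1 and 3 to 8. Leaving out a library there also drops the stage term, so for genes that differ by stage the stage difference enters: the log2 fold change of ENSGALG00000015914.4 was then -0.12 (E5 replicate 2 left out) and -0.41 (E6 replicate 3 left out), over a range of -0.41 to 1.69, and that of ENSGALG00000016172.3 was 0.013 (E5 replicate 3 left out) and 0.031 (E6 replicate 2 left out), over a range of -0.55 to 0.031. The rule took 99 genes at a threshold of 0.3, 15 at 0.5, 69 at a minimum of 2 CPM, 18 at 10 CPM, and 278 and 295 from pair 3 or pair 2 alone. It took 25 to 44 with other pseudocounts and 41 with TMM sizes, the 34 among the 41. The median difference in replicate 1 was 0.048 with TMM sizes, against -0.16. In replicate 1 a single count is worth 1.96 CPM at E6 and 1.71 CPM at E5, which limits what it can show for genes near 5 CPM.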
